A study of Rattus norvegicus with 23 samples.

Results

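Interferon response genes are the genes that cells switch on when interferons or foreign nucleic acids are sensed. A fixed list of 42 such genes was read in rat myocardium, chosen by name: transcription factors, nucleic acid sensors, the ISG15 and ubiquitin system, an ADP-ribosylation module, antiviral RNA effectors, membrane restriction factors, guanylate-binding GTPases and 6 other induced genes. Of these, 38 were in the table of values per library at 12 weeks, which held 10723 genes, and all 38 passed the filter on low values. The authors' deposited tables of comparisons, with 11283 genes, held 39 of the 42, Zbp1 being the addition. Ifit1, Xaf1 and Herc6 were in none of these tables, and their expression was not analysed here.

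The libraries came from polyadenylated RNA of myocardium of Sprague-Dawley rats. In the MI+TRD groups the left coronary artery had been tied through a left thoracotomy, which causes a myocardial infarction (MI), and a TRD device had been implanted in a second operation. The MI groups had the infarction operation, and the labels name no second operation for them, so the device and the second operation cannot be told apart. The groups were MI+TRD at 12 weeks (6 libraries), MI at 12 weeks (6), MI+TRD at 6 weeks (5) and MI at 6 weeks (6), 23 libraries in all. The weeks count from surgery, as the treatment labels say post op. For MI+TRD these labels do not say which operation the weeks count from. The labels used here give neither age nor sex, nor the region of the myocardium that was sampled. Values per library were used for the 12-week groups, and the 6-week groups were read from the authors' deposited table alone.

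Type I and type III interferons bind receptors whose Janus kinases phosphorylate STAT proteins. The complex ISGF3, which holds STAT2 and IRF9, then binds the interferon-stimulated response element (ISRE) in the promoters of target genes, while gamma-activated sites (GAS) are the element through which interferon gamma acts. In the infarcted heart of mice, nucleic acids of dying cells are known to be sensed by infiltrating macrophages, in which IRF3 drives type I interferon and its target genes.

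Promoter windows from 250 bases before to 50 bases after the annotated start were taken from RefSeq (build GRCr8) for 31 of the 42 members. ISRE letters, GAAA and again GAAA with 2 bases of any kind between them, or on the other strand TTTC and TTTC spaced likewise, stood in 18 of these 31 windows (58.1%), against 3.77% of 27457 windows of all genes. GAS letters, TTCNNNGAA, which read the same on both strands, stood in 7 of 31 (22.6%), against 8.68% of all windows. A match of letters describes the window and is not a mapped binding site. The 5 windows below belong to the member with the smallest p at 12 weeks (Bst2), a member with a large difference whose window holds 2 separate matches (Ifi27), the transcription factors Irf7 and Irf9, and Rsad2, which was among the lower members at 6 weeks. They are printed 5′ to 3′ on the strand of the gene, with the fixed letters of the ISRE in capitals, except in Irf9, where the capitals are the fixed letters of the GAS.
Bst2: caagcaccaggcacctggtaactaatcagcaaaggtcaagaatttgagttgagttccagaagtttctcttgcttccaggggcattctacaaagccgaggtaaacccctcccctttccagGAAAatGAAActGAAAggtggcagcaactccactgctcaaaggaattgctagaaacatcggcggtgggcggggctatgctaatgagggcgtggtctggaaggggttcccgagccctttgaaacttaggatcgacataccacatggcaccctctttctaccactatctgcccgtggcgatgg
Ifi27: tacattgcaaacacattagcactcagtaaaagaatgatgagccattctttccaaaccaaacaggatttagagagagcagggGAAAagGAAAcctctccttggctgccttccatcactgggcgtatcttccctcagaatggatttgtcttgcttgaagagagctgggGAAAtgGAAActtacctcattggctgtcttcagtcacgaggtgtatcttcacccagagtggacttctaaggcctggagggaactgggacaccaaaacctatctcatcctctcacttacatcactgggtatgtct
Irf7: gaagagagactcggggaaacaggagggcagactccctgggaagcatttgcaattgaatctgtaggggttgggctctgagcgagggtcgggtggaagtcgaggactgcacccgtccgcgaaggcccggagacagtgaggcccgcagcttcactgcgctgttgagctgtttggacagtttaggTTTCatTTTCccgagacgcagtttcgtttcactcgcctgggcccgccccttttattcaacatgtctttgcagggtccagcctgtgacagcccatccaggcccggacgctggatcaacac
Irf9: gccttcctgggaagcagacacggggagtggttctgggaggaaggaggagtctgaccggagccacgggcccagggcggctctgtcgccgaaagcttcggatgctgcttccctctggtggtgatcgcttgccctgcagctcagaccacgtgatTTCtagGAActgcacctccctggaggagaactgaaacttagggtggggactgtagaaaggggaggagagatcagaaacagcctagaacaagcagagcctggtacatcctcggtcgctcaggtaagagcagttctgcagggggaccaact
Rsad2: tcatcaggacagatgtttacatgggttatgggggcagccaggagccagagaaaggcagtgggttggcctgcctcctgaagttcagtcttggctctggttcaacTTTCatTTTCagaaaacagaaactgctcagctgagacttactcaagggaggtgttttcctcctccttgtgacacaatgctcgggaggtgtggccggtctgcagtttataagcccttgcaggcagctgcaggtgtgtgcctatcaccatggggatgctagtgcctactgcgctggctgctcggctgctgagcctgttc
The Bst2 window was chr16:18254918-18255217 on the minus strand, with 2 ISRE matches that share 4 letters, beginning 131 and 125 bases before the start. Its GAS match, 137 bases before the start, overlaps the first of them and is not marked. The Ifi27 window was chr6:128355062-128355361 on the plus strand, with ISRE matches 169 and 84 bases before the start. The Irf7 window was chr1:205799974-205800273 on the minus strand, with its match 69 bases before the start. The Irf9 window was chr15:33065586-33065885 on the plus strand, with no ISRE letters and with GAS letters 99 bases before the start. The Rsad2 window was chr6:48788071-48788370 on the minus strand, with its match 147 bases before the start. All other coordinates below are those of the deposited table, on build rn6.

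The libraries held between 7197099 and 10304189 reads as recovered from the deposited values, which are normalized counts per gene. Summed cardiomyocyte markers (7 of 8 listed genes measured) ranged from 15300 to 29600 in MI+TRD and from 19000 to 32900 in MI, so the labelled tissue showed its defining genes. Summed atrial markers (5 of 5 measured) ranged from 137 to 3340 in MI+TRD and from 221 to 12000 in MI. Summed leukocyte and macrophage markers (14 of 14 measured, none at 0 in all libraries) reached 2190 in MI+TRD replicate 6. MI+TRD replicates 1 to 5 had 63.4 to 234, and the MI libraries had 80.2 to 208. MI+TRD replicates 1, 4 and 5 stood apart by low values of genes with a short genomic span, and their levels of Hba2, which encodes a chain of haemoglobin, were 88.3, 234 and 465. In such tissue RNA, fewer cells of a type and less RNA per cell cannot be told apart. The labels name separate samples but no animals, so the tests below rest on the spread between samples, which may be partly technical.

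At 12 weeks, 22 of the 38 measured members lay below the median gene in MI+TRD relative to MI, and their differences were small. Relative log2 fold changes, MI+TRD over MI minus the median of all genes (which lay at −0.14), ran from −0.86 for Bst2 to 0.33 for Isg20, with a median of −0.06. All p-values here and below test the plain log2 fold change, before that median was subtracted, and not the relative value printed beside them. With limma and Benjamini-Hochberg adjustment over all genes, 0 of 10655 genes passed an adjusted p of 0.05 (0%), and 0 members did. At an unadjusted limma p below 0.05, 9 of the 38 members (23.7%) were lower in MI+TRD, against 19.1% of all genes, and 0 were higher, against 2.8% of all genes. The share of lower members was thus close to that of all genes. The 9 were Bst2, Irf9, Irf7, Irf1, Ifi35, Ifi27, Usp18, Irf3 and Ifi44. With columns rescaled to equal totals, 1 member (Bst2) was lower and 1 (Dtx3l) higher at an unadjusted limma p, against 3.87% and 11.3% of all genes. Without MI+TRD replicate 5, 5 members (13.2%) were lower, against 16.1% of all genes. On reads recovered from the values, edgeR called 0 genes and had 3 members (7.89%) lower at an unadjusted p, against 6.97% of all genes. DESeq2 called 21 genes and 0 members.

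**Figure D1:**
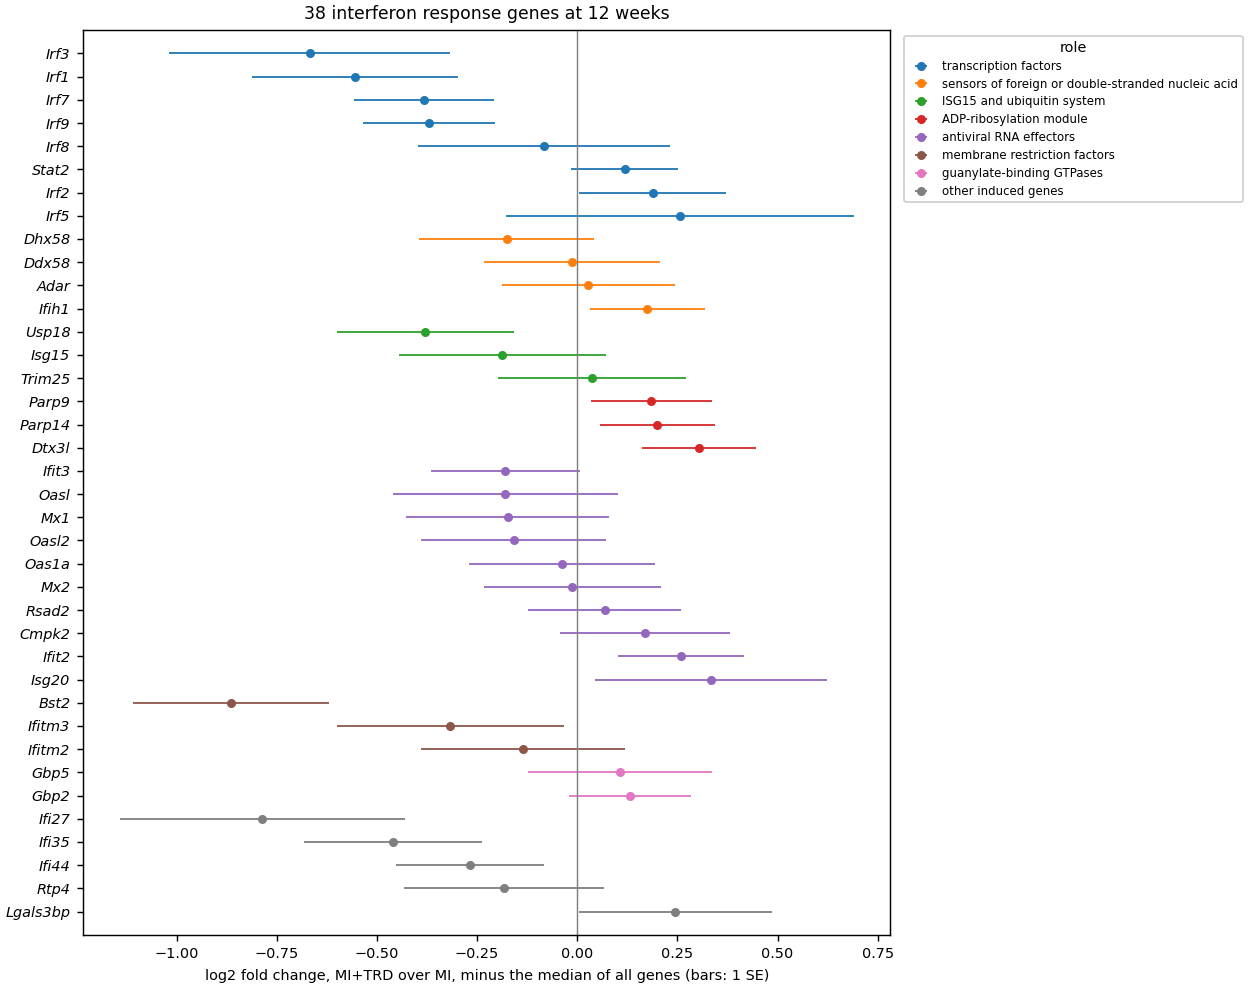
Relative log2 fold changes of the 38 members at 12 weeks, MI+TRD over MI minus the median of all genes (x axis), in the order of their roles (y axis and colours); points are estimates and bars are 1 SE from limma. Bst2 lies lowest at −0.86 and Isg20 highest at 0.33, and the 3 members of the ADP-ribosylation module lie above 0.

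Among the 8 transcription factors, 4 (50%) were lower at an unadjusted p, against 19.1% of all genes, and 0 were higher, against 2.8%. The counts per role rest on few genes, and differences between roles were not tested. Irf9, the DNA-binding subunit of ISGF3 (chromosome 15, 34282936 to 34288140), had deposited normalized counts of 5.94, 7.54, 5.25, 4.43, 4.94 and 7.80 in MI+TRD and 8.11, 8.20, 7.11, 8.70, 10.3 and 8.49 in MI. All 6 MI+TRD libraries lay below the MI median and 4 below the lowest MI library, so the groups overlapped in MI+TRD replicates 2 and 6. Its relative log2 fold change was −0.37 (SE 0.164, limma adjusted p = 0.133). Without MI+TRD replicates 1, 4 and 5 it was −0.16 (limma adjusted p = 0.436), and with the trend over gene span removed −0.19 (limma adjusted p = 0.625). Both settings were chosen after seeing the data. Leaving out libraries in which a gene is low shrinks its difference by construction, and fewer libraries weaken the test. Here and below, such values show only which libraries carry a difference. Irf9 passed in the authors' deposited table for 12 weeks, with a ratio of 0.688 and a false discovery rate of 0.0462.

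Irf7, which amplifies interferon alpha production (chromosome 1, 214249388 to 214252456), had 14.4, 21.4, 16.0, 10.9, 15.3 and 14.8 in MI+TRD and 23.8, 23.2, 17.3, 30.8, 22.0 and 17.1 in MI. MI+TRD replicate 2 was the only MI+TRD library within the range of MI. The relative log2 fold change was −0.38 (SE 0.174, limma adjusted p = 0.133), and −0.20 without MI+TRD replicates 1, 4 and 5. The interval of Irf7 lies inside the listed intervals of 10 other genes, among them Rplp2 and Polr2l, and no source used here gives the rules by which reads in such intervals were counted.

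Irf1, a factor induced by interferon gamma and a driver of antigen presentation genes, ranged from 3.06 to 10.3 in MI+TRD (median 6.30) and from 7.54 to 15.1 in MI (median 10.1). Irf3, which is phosphorylated after nucleic acid sensing and starts interferon beta transcription, ranged from 1.84 to 12.1 in MI+TRD (median 6.58) and from 7.63 to 14.0 in MI (median 10.8). For both genes MI+TRD replicate 5 was the lowest library of all, and MI+TRD replicates 2 and 6, for Irf3 also replicate 3, lay within the MI range. Their relative log2 fold changes were −0.56 (SE 0.257, limma adjusted p = 0.15) for Irf1 and −0.67 (SE 0.351, limma adjusted p = 0.198) for Irf3. Without MI+TRD replicates 1, 4 and 5 they were −0.14 for Irf1 and 0.08 for Irf3. The listed interval of Sbk1 covers Irf3 on the other strand, and no source used here says whether strand was used.

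The remaining factors were neither lower nor higher at an unadjusted limma p below 0.05. Stat2, the partner of IRF9 in ISGF3, had a relative log2 fold change of 0.12 (SE 0.133), with 14.4 to 20.9 in MI+TRD and 14.8 to 23.3 in MI. Irf2, known as an antagonist of IRF1, had 0.19 (SE 0.183). Irf8, a factor of the myeloid and dendritic lineages, had −0.08 (SE 0.315) and was wide in MI+TRD, at 1.80 to 7.46 against 3.31 to 7.57 in MI. Irf5, which acts below Toll-like receptors in myeloid cells, had 0.26 (SE 0.434). It measured 7.88 in MI+TRD replicate 6, while MI+TRD replicates 1 to 5 had 0.511 to 1.95 and the MI libraries 1.22 to 2.36. That is the library with the leukocyte marker sum of 2190, and the part of leukocyte RNA in the Irf5 value was not tested. Without that library the relative log2 fold change of Irf5 was −0.13.

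**Figure D2:**
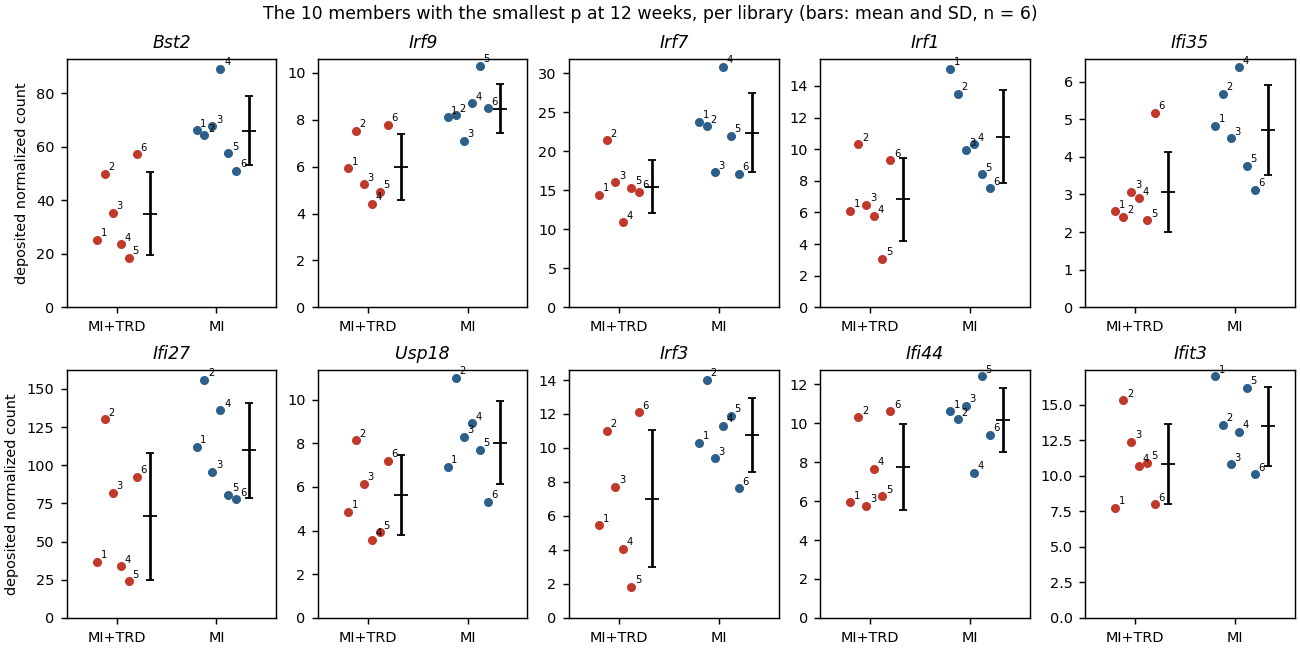
Deposited normalized counts (y axis, linear, from 0) of the 10 members with the smallest unadjusted p at 12 weeks in each MI+TRD library (red, left) and each MI library (blue, right), numbered by replicate, with mean and SD (n = 6 each). Replicates 1, 4 and 5 of MI+TRD are low in most panels while replicates 2 and 6 often lie inside the MI range, as for Ifi27 at 130 and 92.5, where the MI libraries run from 77.8 to 156.

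The sensors of foreign or double-stranded nucleic acid did not pass the test in either direction. At an unadjusted p, 0 of 4 measured members were lower or higher, against 19.1% and 2.8% of all genes. Adar, which edits adenosine in double-stranded RNA and keeps the cell's own RNA from being sensed, ranged from 16.0 to 34.9 in MI+TRD (median 26.1) and from 22.7 to 39.8 in MI (median 25.1). Its MI+TRD libraries split, with 33.8, 32.8 and 34.9 in replicates 1, 4 and 5 and 16.0, 18.0 and 19.3 in replicates 2, 3 and 6, which lay below every MI library. The relative log2 fold change was 0.03 (SE 0.216) with all libraries and −0.43 (limma adjusted p = 0.383) without MI+TRD replicates 1, 4 and 5. Ddx58, which encodes the RNA sensor RIG-I, had −0.01 (SE 0.22) and was highest in MI+TRD replicate 5 (20.4) and lowest in MI+TRD replicate 6 (7.52). Ifih1, which encodes the sensor of long double-stranded RNA, had 0.18 (SE 0.144). Dhx58, whose product regulates both sensors, had −0.18 (SE 0.218). Zbp1, a sensor of left-handed nucleic acid, was near the low end of detection in the authors' deposited table for 12 weeks, with group means of 0.289 in MI+TRD and 0.164 in MI and a false discovery rate of 0.759.

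In the ISG15 and ubiquitin system, 1 of 3 measured members (33.3%) was lower at an unadjusted p, against 19.1% of all genes. Usp18, the protease that strips ISG15 from proteins and dampens signalling at the interferon receptor (chromosome 4, 153806080 to 153834375), ranged from 3.59 to 8.13 in MI+TRD (median 5.49) and from 5.33 to 11 in MI (median 8.0). MI+TRD replicates 1, 4 and 5 lay below every MI library and replicates 2, 3 and 6 within the MI range. Its relative log2 fold change was −0.38 (SE 0.221, limma adjusted p = 0.189) with all libraries and 0.01 without those 3. Isg15, the ubiquitin-like modifier itself, had −0.19 (SE 0.258), with 3.35 to 10.4 in MI+TRD and 4.33 to 9.19 in MI. Trim25, a ubiquitin ligase that activates RIG-I, had 0.04 (SE 0.234), with 11.1 to 23.0 in MI+TRD (median 17.6) and 12.1 to 31.1 in MI (median 16.4).

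The ADP-ribosylation module lay above the median gene in all 3 of its members, none of which had an unadjusted limma p below 0.05. Dtx3l and Parp9 encode a complex of a ubiquitin ligase and an ADP-ribosyltransferase, and the genes stand head to head with 1.21 kb between them on chromosome 11. Dtx3l measured 11.3, 10.9, 9.80, 12.4, 11.1 and 13.2 in MI+TRD and 10.7, 8.20, 8.17, 10.4, 12.0 and 12.4 in MI, with 2 MI+TRD libraries above every MI library. Its relative log2 fold change was 0.30 (SE 0.142, limma adjusted p = 0.547), while its plain log2 fold change was 0.16. Parp9 had 0.19 (SE 0.151) and Parp14, a related mono-ADP-ribosyltransferase, had 0.20 (SE 0.143), with 16.2 to 26.5 in MI+TRD (median 22.0) and 16.9 to 24.4 in MI (median 20.9). None of the 3 changed sign in any of the 26 alternative settings, where Dtx3l ran from 0.22 to 0.41. Of all 38 members, 16 never changed sign in these settings, which refit the same libraries.

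The antiviral RNA effectors, 10 of 11 measured, did not pass in either direction, with relative log2 fold changes between −0.18 and 0.33. At an unadjusted p, 0 of these members were lower or higher, against 19.1% and 2.8% of all genes. Ifit2, an RNA-binding protein that blocks translation of viral messages, measured 36.8, 28.0, 24.7, 38.8, 43.0 and 28.9 in MI+TRD and 23.5, 31.6, 35.5, 29.7, 35.4 and 27.4 in MI. MI+TRD replicates 1, 4 and 5 lay above every MI library and the other 3 within the MI range. Its relative log2 fold change was 0.26 (SE 0.157, limma adjusted p = 0.717). Its neighbour Ifit3, which forms complexes with other IFIT proteins and lies 5.51 kb away on the same strand, had −0.18 (SE 0.186), with 7.74 to 15.3 in MI+TRD (median 10.8) and 10.1 to 17.0 in MI (median 13.4). The neighbours thus had estimates of opposite sign, and the difference between them was not tested.

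Rsad2, which encodes viperin, an enzyme that makes a chain-terminating nucleotide, and Cmpk2, a mitochondrial nucleotide kinase, lie 14.9 kb apart on chromosome 6. Their relative log2 fold changes were 0.07 (SE 0.191) and 0.17 (SE 0.211). Mx1 and Mx2, dynamin-like GTPases that trap viral particles, had −0.17 (SE 0.253) and −0.01 (SE 0.222). The oligoadenylate synthetase Oas1a, whose product activates the ribonuclease RNase L, had −0.04 (SE 0.232), and the related Oasl and Oasl2 had −0.18 (SE 0.281) and −0.16 (SE 0.23). Isg20, an exonuclease of RNA, had 0.33 (SE 0.29) at 0.799 to 2.51 in MI+TRD and 0.817 to 1.5 in MI. Mx1 and Mx2, Oas1a and its relatives, and Ifitm2 and Ifitm3 are similar genes that can share reads.

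Bst2, which encodes tetherin, a membrane protein that holds budding virus particles at the cell surface, had the smallest p of any member and rank 44 among all 10655 genes. It spans 19938784 to 19942354 on chromosome 16. Its deposited normalized counts were 25.3, 49.8, 35.4, 23.6, 18.6 and 57.2 in MI+TRD and 66.1, 64.2, 67.6, 89.2, 57.5 and 51.1 in MI. All 6 MI+TRD libraries lay below the MI mean and 5 of 6 below the lowest MI library, MI+TRD replicate 6 being the exception. The means were 35.0 ± 15.5 in MI+TRD and 66.0 ± 13.0 in MI (SD, n = 6 each). Its relative log2 fold change was −0.86 (SE 0.245), and it missed the threshold after adjustment (limma adjusted p = 0.133; DESeq2 adjusted p = 0.14; edgeR adjusted p = 0.305). Bst2 passed in the authors' deposited table for 12 weeks, with a ratio of 0.513 and a false discovery rate of 0.0434. Without MI+TRD replicates 1, 4 and 5, the relative log2 fold change of Bst2 was −0.33 (limma adjusted p = 0.392).

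The other membrane restriction factors, Ifitm3 and Ifitm2, block the fusion of viral and cellular membranes. Ifitm3 had 17.3, 66.3, 40.5, 18.8, 32.0 and 52.6 in MI+TRD and 52.4, 55.0, 47.7, 43.0, 48.5 and 35.1 in MI. MI+TRD held both its lowest and its highest library, and the relative log2 fold change was −0.32 (SE 0.283, limma adjusted p = 0.362). Without MI+TRD replicates 1, 4 and 5 it was 0.31. Ifitm2 had −0.14 (SE 0.255) with all libraries, and 0.33 without those 3.

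The guanylate-binding GTPases, which coat and lyse membranes around intracellular pathogens, were neither lower nor higher at an unadjusted limma p below 0.05. Of all genes, 19.1% were lower and 2.8% higher. Gbp2 ranged from 9.80 to 19.9 in MI+TRD (median 14.5) and from 13.1 to 15.7 in MI (median 14.3), with a relative log2 fold change of 0.13 (SE 0.152). Gbp5, known also as a promoter of inflammasome assembly, had 0.11 (SE 0.23).

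Among the 5 other induced genes measured, 3 (60%) were lower at an unadjusted p, against 19.1% of all genes. Ifi27, a small membrane protein of mitochondria and the nuclear envelope that is strongly induced by type I interferon (chromosome 6, 127327959 to 127334432), had 36.9, 130, 82.0, 33.9, 24.0 and 92.5 in MI+TRD and 112, 156, 95.9, 136, 80.7 and 77.8 in MI. The values of MI+TRD replicates 1, 4 and 5 were below every MI library, and those of replicates 2, 3 and 6 within the MI range. The relative log2 fold change was −0.79 (SE 0.356, limma adjusted p = 0.159), and 0.06 without those 3 libraries. Ifi35, a leucine zipper protein released as a danger signal, had 2.31 to 5.17 in MI+TRD (median 2.72) and 3.12 to 6.38 in MI (median 4.66), and 5 of 6 MI+TRD libraries lay below every MI library. Its relative log2 fold change was −0.46 (SE 0.222, limma adjusted p = 0.15), and −0.27 without MI+TRD replicates 1, 4 and 5.

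Ifi44, a cytoplasmic interferon-induced protein, had 5.76 to 10.6 in MI+TRD (median 6.94) and 7.46 to 12.4 in MI (median 10.4), with a relative log2 fold change of −0.27 (SE 0.185, limma adjusted p = 0.213), and −0.07 without MI+TRD replicates 1, 4 and 5. Rtp4, a chaperone of membrane receptors, had −0.18 (SE 0.249). Lgals3bp, a secreted galectin-binding glycoprotein, had 0.24 (SE 0.24), with 63.7 in MI+TRD replicate 6, 19.5 to 29.1 in MI+TRD replicates 1 to 5, and a median of 26.9 in MI. Without MI+TRD replicate 6, the library with the leukocyte marker sum of 2190, its relative log2 fold change was 0.05.

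The 9 lower members were mostly genes of short span, and for 5 of them (Bst2, Irf1, Ifi27, Usp18 and Irf3) MI+TRD replicates 1, 4 and 5 held the 3 lowest MI+TRD values. Of the 9, 7 span up to 10 kb in the deposited table, a size shared by 15 of the 38 members and 2965 of all 10655 genes tested. The share of short genes among all lower genes was not taken. The 15 members of that size had a median relative log2 fold change of −0.32, against −0.19 for all 2965 genes of that size. The 18 members spanning over 10 to 30 kb had a median of −0.03, the same as the −0.03 of all 3530 such genes. The 5 members above 30 kb had 0.19, against 0.13 for all 4160 such genes. Relative to the library median, the short members deviated from their mean over libraries by −0.39, −0.47 and −0.26 in MI+TRD replicates 1, 4 and 5 (log2), and by 0.37, −0.07 and 0.26 in MI+TRD replicates 2, 3 and 6. In MI the short members lay between −0.10 and 0.27. All 2965 genes of that size deviated by −0.25 in each of MI+TRD replicates 1, 4 and 5. In MI+TRD replicates 2, 3 and 6 those genes deviated by 0.09, 0.03 and 0.08. The part of span in these differences was not tested beyond removing the trend over span from each library, after which 1 member, Bst2, was lower at an unadjusted p, with a relative log2 fold change of −0.65. Dtx3l and Ifit2 were then higher at an unadjusted p, and 0 genes passed an adjusted p of 0.05 with limma. Of all genes, 6.17% were then lower and 6.72% higher at an unadjusted p.

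**Figure D3:**
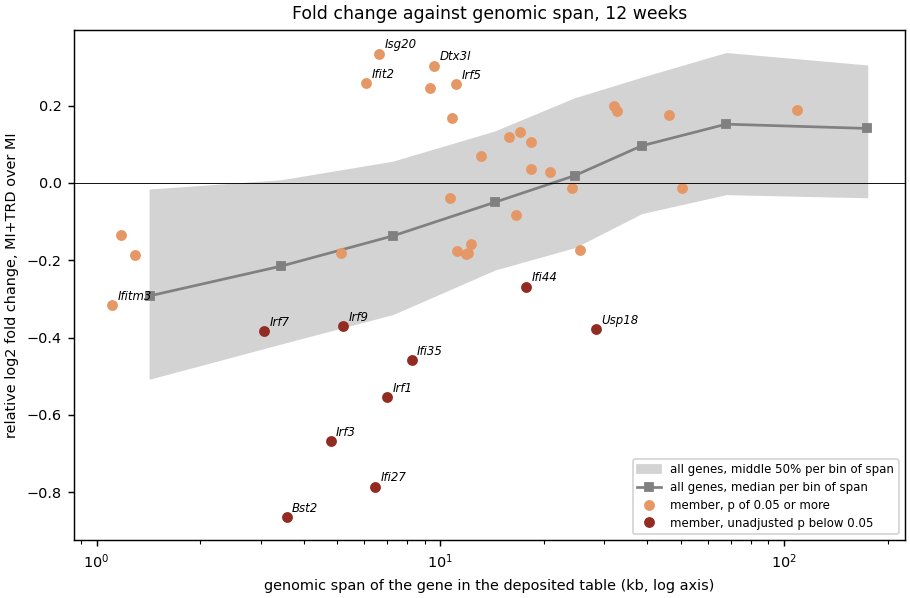
Relative log2 fold change at 12 weeks, MI+TRD over MI (y axis), of the 38 members against genomic span in the deposited table (x axis, kb, log scale); squares are medians of all genes per bin of span and the grey band holds their middle 50%. Dark points are members lower at an unadjusted p below 0.05, and Bst2 at −0.86, Ifi27 at −0.79 and Irf3 at −0.67 lie below the band.

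MI+TRD replicates 1, 4 and 5 all lay below every MI library for 10 of 38 members (26.3%), namely Irf1, Irf3, Irf7, Irf8, Irf9, Usp18, Bst2, Ifitm3, Ifi27 and Ifi35, against 17.8% of all genes. For 0 members did all 6 MI+TRD libraries lie below every MI library, against 1.59% of all genes, and for 0 members all above, against 0.113%. Without those 3 libraries 3 members, Adar, Bst2 and Ddx58, were lower at an unadjusted p (7.89%), against 9.68% of all genes, and the median over members was 0.03. Members differed in which libraries were low: Bst2, Ifi27, Irf1 and Irf3 had their lowest MI+TRD values in replicates 1, 4 and 5, while Adar, Ifit2 and Trim25 had their highest there.

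**Figure D4:**
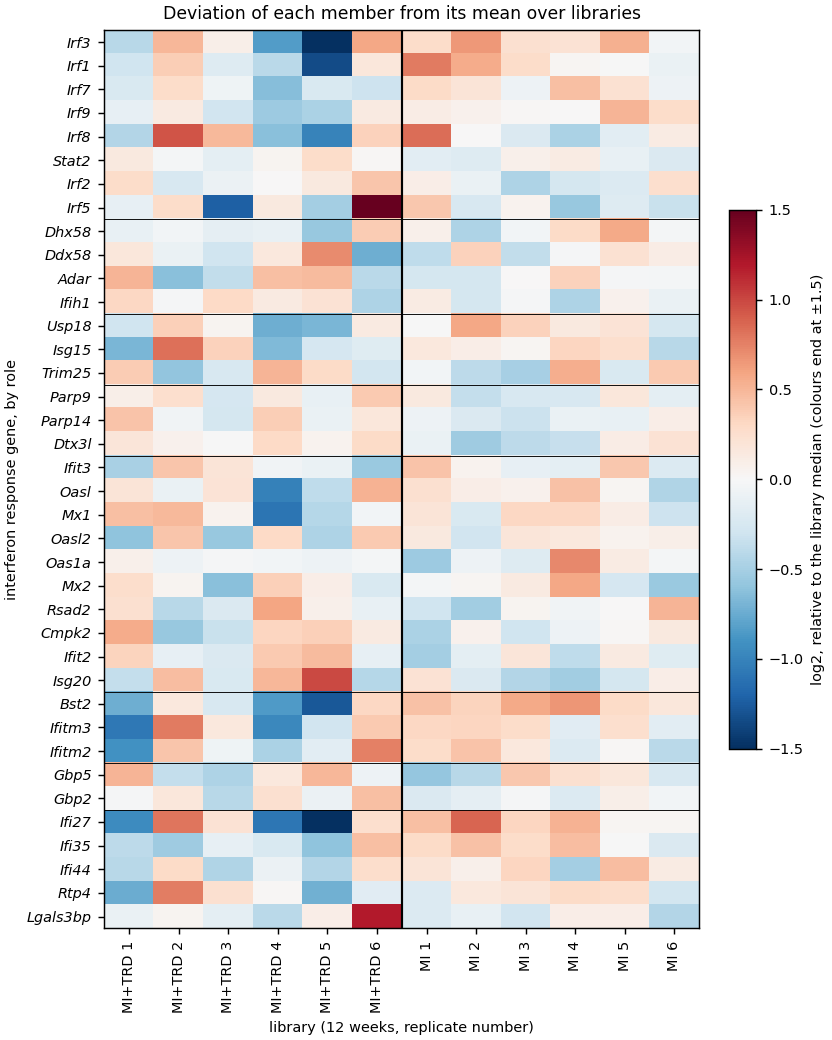
Deviation of each of the 38 members (rows, grouped by role) from its own mean over the 12 libraries, on the log2 scale relative to the library median, with MI+TRD libraries left and MI libraries right of the black line. Red is higher and blue lower, with colours ending at ±1.5; Irf3 is lowest in MI+TRD replicate 5 and Irf5 highest in MI+TRD replicate 6.

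Members with and without ISRE letters in their promoter window had medians close to each other. The 17 measured members with the letters had a median relative log2 fold change of −0.04, with 4 lower at an unadjusted p. The 12 measured members whose window lacked them had −0.13, also with 4 lower, and 19.1% of all genes were lower. Bst2, Ifi27, Irf7 and Ifi44 were the lower ones with the letters. The absence of these letters from a window says nothing about binding elsewhere.

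The wider interferon pathway was read from another 80 genes, 60 of them measured, of which 6 (10%) were lower at an unadjusted p and 1 was higher, against the 19.1% and 2.8% of all genes. None passed with limma after adjustment. The interferon genes Ifnb1, Ifng and Ifnl1 were not analysed here. The receptor chain gene Ifnar1 had a relative log2 fold change of 0.21 (SE 0.159), and the interferon gamma receptor genes Ifngr1 and Ifngr2 had −0.05 (SE 0.114) and −0.06 (SE 0.178). Jak2, the kinase of the interferon gamma receptor and of other cytokine receptors, was the higher one. It measured 11, 17.9, 13.6, 14.4, 17.3 and 22.0 in MI+TRD and 14.1, 8.83, 9.23, 9.03, 11.4 and 8.31 in MI. MI replicates 1 and 5 lay within the range of MI+TRD, and the other 4 MI libraries below every MI+TRD library. The relative log2 fold change of Jak2 was 0.78 (SE 0.178, limma adjusted p = 0.133; DESeq2 adjusted p = 0.0212).

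The 6 lower pathway genes were Tap2, a subunit of the peptide transporter of antigen presentation, at a relative log2 fold change of −0.45, Sp110, a nuclear body protein, at −0.38, Mov10, an RNA helicase, at −0.37, Igtp, an immunity-related GTPase, at −0.33 (SE 0.185), Lgals9, a galectin, at −0.27, and Uba7, the activating enzyme of ISG15, at −0.22. Their limma adjusted p-values ran from 0.134 for Tap2 to 0.222 for Uba7. Tlr7, a sensor of single-stranded RNA in endosomes, had 0.71 (SE 0.475), with 5.37 in MI+TRD replicate 6, 0.316 to 2.31 in MI+TRD replicates 1 to 5, and 0.542 to 1.29 in MI.

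The authors' deposited table for 12 weeks, made with a scaling and a model of their own, gave 2 members at a false discovery rate of 0.05, Bst2 and Irf9, both lower in MI+TRD, against 2.94% of all genes. At a deposited p-value below 0.05, the same 9 members as in limma were lower in the authors' deposited table, 9 of 39 against 22% of all genes, and 0 were higher, against 2.12%. The median ratio of MI+TRD to MI in the authors' deposited table was 0.86 over the members and 0.896 over all genes.

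At 6 weeks no member passed, and the members with the smallest p were not among the 9 of 12 weeks. In the authors' deposited table for 6 weeks 0 members reached a false discovery rate of 0.05 (lowest 0.39, for Lgals3bp), as did 0% of all genes. At a deposited p-value below 0.05, the authors' deposited table had 3 members lower in MI+TRD, against 4.09% of all genes, and 2 higher, against 4.42%. The lower ones in the authors' deposited table were Rsad2, with means of 7.14 in MI+TRD and 12.2 in MI (ratio 0.588), Cmpk2, with 4.97 in MI+TRD and 7.89 in MI (ratio 0.63), and Ifit2, with 35.4 in MI+TRD and 48.8 in MI (ratio 0.725). The higher ones in the authors' deposited table were Irf5, with means of 4.95 in MI+TRD and 1.98 in MI (ratio 2.5), and Lgals3bp, with 52.9 in MI+TRD and 32.3 in MI (ratio 1.64). The leukocyte and macrophage markers were also higher in MI+TRD in the authors' deposited table for 6 weeks: all 14 had a ratio above 1, from 1.74 for Ptprc to 13.2 for Fcgr2b, and 11 of 14 were higher at a deposited p-value below 0.05 (lowest false discovery rate 0.286, for Itgam). Their deposited means summed to 819 in MI+TRD and 200.2 in MI at 6 weeks. The part of leukocyte RNA in the 6-week differences of members and pathway genes was not tested.

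The authors' deposited table for 6 weeks had a ratio of MI+TRD to MI below 1 for 30 of 39 members (76.9%), against 57.0% of all genes, with a median of 0.904, against 0.973 over all genes. In the authors' deposited table for 6 weeks Bst2 had a ratio of 0.836 (false discovery rate 0.961), with means of 75.3 in MI+TRD and 90.1 in MI. The authors' deposited table gave Irf9 a ratio of 0.927 and Ifi27 0.981 at 6 weeks, and 0.688 and 0.587 at 12 weeks. The difference between the times was not tested, since no values per library were used for 6 weeks. Outside the members, Jak2 had ratios of 1.54 at 12 weeks and 1.55 at 6 weeks in the authors' deposited tables (false discovery rates 0.0633 at 12 weeks and 0.35 at 6 weeks). Of 62 other pathway genes in the authors' deposited table for 6 weeks, 6 were higher at a deposited p-value below 0.05, against 4.42% of all genes, and 1 was lower, against 4.09%. The higher ones were Jak2, Tlr7, Ptpn6, a phosphatase of blood cells, Samhd1, a nucleotide hydrolase, Ifi30, a reductase of lysosomes, and Ciita, the regulator of class II antigen presentation genes. These 6 higher genes stood beside the higher leukocyte markers given above. In the same deposited table of the authors, Ciita had a ratio of 4.14 (false discovery rate 0.428) and Lgals9, the lower one, 0.702 (false discovery rate 0.367).

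Set side by side, the group means of the authors' deposited tables were lower at 12 than at 6 weeks for most members in both groups. The ratio of 12 to 6 weeks in these means was below 1 for 35 of 39 members (89.7%) in MI+TRD, against 60.4% of all genes, with a median of 0.687 against 0.928 over all genes. In MI, the authors' deposited tables gave a ratio below 1 for 36 of 39 members (92.3%), against 44.1% of all genes, with a median of 0.76 against 1.03. In both groups at once it was below 1 for 33 of 39 members, against 33.8% of all genes. The exceptions were Irf2, Ddx58, Adar and Trim25 in MI+TRD, and Usp18, Trim25 and, at 1.0, Irf1 in MI. The 14 leukocyte and macrophage markers were also lower at 12 weeks in the authors' deposited tables, all 14 in both groups, with a median ratio of 0.599 in MI+TRD and 0.797 in MI, and their part in the members' ratios was not tested. These ratios carry no SD and no test, the tables may have been normalized separately, and time and any batch of sequencing cannot be told apart.

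Members differed in how far each group's mean stood below its 6-week level. The ratios of 12 to 6 weeks computed from the authors' deposited tables were 0.94 in MI+TRD and 0.589 in MI for Rsad2, 0.974 in MI+TRD and 0.597 in MI for Cmpk2, and 0.969 in MI+TRD and 0.652 in MI for Ifit2. For Bst2 the ratio was 0.47 in MI+TRD and 0.766 in MI, and for Ifi27 it was 0.537 in MI+TRD and 0.898 in MI, from the authors' deposited tables. Rsad2, Cmpk2 and Ifit2 were named for low MI+TRD means relative to MI at 6 weeks, and Bst2 and Ifi27 for low ones at 12 weeks. The direction of these contrasts between groups follows from that choice and is no separate result. Of the other pathway genes in the authors' deposited tables, 55 of 62 (88.7%) had a ratio below 1 in MI+TRD and 46 of 62 (74.2%) in MI.

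**Figure D5:**
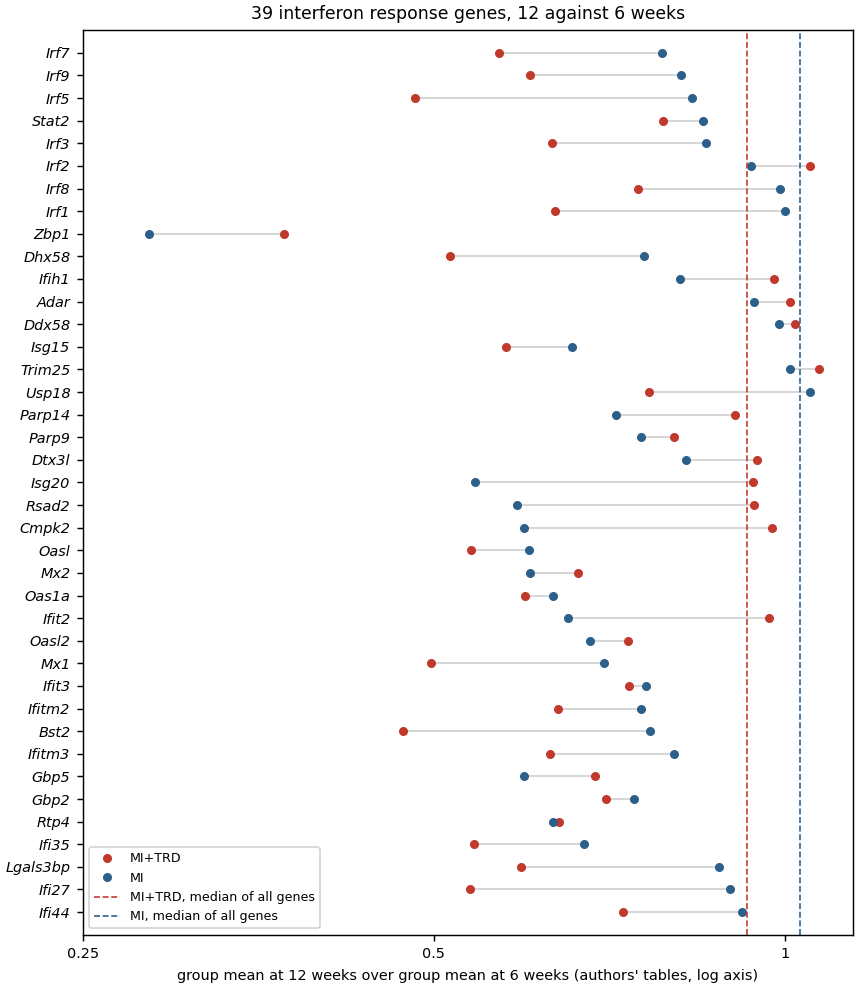
Ratio of the group mean at 12 weeks to that at 6 weeks in the authors' deposited tables (x axis, log scale) for the 39 members (rows, by role) in MI+TRD (red) and MI (blue), with dashed lines at the medians of all genes, 0.928 and 1.03. In MI 38 of 39 members and in MI+TRD 29 of 39 lie left of their group's line.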

How the data were processed

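Polyadenylated RNA was extracted from snap-frozen myocardium and sequenced by Illumina (per the labels' protocols). Partek and build rn6 are named in the submitters' processing notes, with no version; the aligner, counting rules and normalization are not stated in the sources read here. The deposited values per library are a signal, normalized counts for each gene in the 12-week libraries, per the file headers. The authors deposited 2 tables of comparisons with a p-value, a step-up false discovery rate, a linear ratio (MI+TRD over MI), a signed fold change (a score outside −1 to 1) and least-squares means, per the file headers. Whole reads were recovered as value over step minus 1, and 97.2% to 98.6% of values of up to 20 steps lay within 0.1 of a whole number.

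The 12-week test was limma 3.58.1 (eBayes with a trend, two-sided) on log2(value + 0.208) over genes with a mean of at least 0.415 deposited units, 10655 of 10723, with Benjamini-Hochberg adjustment. Fold changes on this scale understate the change of low genes. Relative values subtract the median of all genes, while the p-values test the plain log2 fold change before that subtraction. edgeR 4.0.16 and DESeq2 1.42.0 were run on recovered reads. The fit was tested on simulated data, which had the same spread setting for all genes and no shifts shared by genes of a library. That checks the code and does not show how the fit behaves with the spread of these libraries. Replicates all differed by more than sampling noise (chi-square over degrees of freedom at least 15).

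Members and lists were chosen with earlier results of these data known. Every measured member is named, with values per library, or the range and median per group, for the 10 smallest p and for the member of each role with the highest deposited value, not corrected for length, and up to 3 genes of each pathway list. Further genes, such as Dtx3l, Ifitm3, Irf5, Isg20 and the 6 lower pathway genes, were given values after these were seen. Some listed genes are not reported here by name.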

Additional observations from a re-analysis of the deposited data

Results flagged for a closer look

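In 76 groups of 6 values (38 members in 2 groups at 12 weeks), 6 had a highest library whose gap to the next, as a share of the group's range, exceeded Dixon's critical value of 0.625, which chance passes in about 1 of 20 groups. In MI+TRD replicate 6, Irf5 measured 7.88 against 0.511 to 1.95 in MI+TRD replicates 1 to 5 (gap share 0.805). In the same library Lgals3bp measured 63.7 against 19.5 to 29.1 (0.783) and Ifi35 5.17 against 2.31 to 3.07 (0.737). That library had a leukocyte and macrophage marker sum of 2190, where MI+TRD replicates 1 to 5 had 63.4 to 234 and the MI libraries 80.2 to 208, and the part of leukocyte RNA in these values was not tested. In MI replicate 4, Adar measured 39.8 against 22.7 to 26.0 in the other MI libraries (0.807) and Oas1a 4.22 against 1.40 to 2.26 (0.695). In MI replicate 1, Irf8 measured 7.57 against 3.31 to 4.37 in the other MI libraries (0.752).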

How the results depend on the processing

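In 26 alternative settings of the 12-week fit, 0 members passed an adjusted p of 0.05, and the lowest member value was a limma adjusted p of 0.0668 (Bst2, without MI+TRD replicate 2). The number of genes called was 0 in all of these settings except DESeq2 on recovered reads, which called 21. The count of members lower at an unadjusted p was 9 as reported (23.7%, against 19.1% of all genes). Equal totals gave 1 (2.63%, against 3.87%), edgeR 3 (7.89%, against 6.97%) and DESeq2 2 (5.26%, against 7.18%). Leaving out MI+TRD replicates 1, 4 and 5 gave 3 (7.89%, against 9.68%). Leaving out the 3 libraries with the most Myl7 gave 5 (13.2%, against 15.4%). Removing the trend over gene span gave 1 (2.63%, against 6.17%). These last 3 settings were chosen after seeing the data. Leaving out each library in turn gave 5 (MI+TRD replicate 5, 13.2% against 16.1% of all genes) to 13 (MI+TRD replicate 2, 34.2% against 20.4%). The count of higher members, 0 as reported, was 1 with median ratio scaling and 1 with equal totals (Dtx3l both times), and 2 with the span trend removed. The shares of all genes higher in these 3 settings were 7.52%, 11.3% and 6.72%, against 2.8% as reported. In the authors' deposited tables, 9 members passed a p-value of 0.05 at 12 weeks and 5 at 6 weeks, against 2 and 0 at the false discovery rate. The median over members ran from −0.13 to 0.03. Bst2 stayed below an unadjusted p of 0.05 in all 26 settings, at −1.05 to −0.33, while 16 of 38 members never changed sign. Higher against lower genes at an unadjusted p were 298 against 2033 as deposited, 701 against 1042 with quantile normalization, 801 against 876 with median ratio scaling, 1208 against 412 with equal totals, 852 against 743 with edgeR and 716 against 657 with the span trend removed. With the replicate number as a block, 8 members (21.1%) were lower at an unadjusted p, against 17.2% of all genes, and 0 genes were called. Correlations between libraries of equal number ran from −0.33 to 0.327. For MI+TRD replicates 2, 3 and 5 the best-correlated MI library bore the same number. Whether equal numbers pair libraries is not known. Depth limits low members such as Isg20, at 0.799 to 2.51 in MI+TRD. The causes were not tested.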
